A study of Hypsibius dujardini with 126 samples.

Results

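The transcripts described here are those of the tardigrade Hypsibius dujardini that were almost absent from the youngest embryos, first reached a clear level at 80-89 h of development and were still at that level at 90-99 h. They were selected on measured values: a mean under 1 CPM (counts scaled to a common transcript total in every embryo) at 0-9 h, a mean of 50 CPM or more for the first time in the 80-89 h window, and a mean of 50 CPM or more again at 90-99 h. Of 12746 transcript models, 243 met the rule. The rise at 80-89 h, the low level before it and the level at 90-99 h are therefore given as descriptions with no test.

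RNA of 126 single whole embryos was measured by CEL-Seq, in which each embryo's polyadenylated RNA gets its own barcode at the 3′ end and the pooled material is amplified by in vitro transcription. According to the protocols in the labels, embryos were released from the shed cuticle in which the mother laid them, watched to the 2-cell stage, kept at 20 °C, and frozen in liquid nitrogen. All came from cultures of 1 source, and the labels name no strain, treatment or genetic change, and they tell embryos apart by time and number only. The time tag counts minutes after fertilization, whereas the protocol counts hours past the 2-cell stage, so time zero is uncertain. The embryos fall into 10 windows of 10 h, and embryo numbers form 3 runs: embryos 1-25 hold ages up to 18 h and from 80 to 98 h, embryos 26-78 hold 47 to 99 h, and embryos 79-126 hold ages up to 46 h. The labels name no batch and tie no embryo to a mother, so p-values speak only of the variation among embryos, and clutch mates may be among them.

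Tardigrades develop directly, without a larva, and the embryo hatches as a small animal with legs, claws, a sucking pharynx and stylets. Late development is the time in which tissues laid down earlier, such as muscle, nervous system, gut and cuticle, take on their final form. A young animal embryo holds RNA laid down by the mother, and a transcript almost absent from the youngest embryos and abundant later is as a rule made from the embryo's own genome. The deposited counts carry transcript identifiers with no gene names, and no sequence of these transcripts was used here, so no role is given to any of the 243, and lists of cuticle, muscle, nerve, gut, desiccation and yolk genes were not applied.

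The transcript total of an embryo was 2347 at the lowest, 634044 at the median and 4972036 at the highest. The rule drops embryos with less than 10% of the median total, which removed 25 and kept 101. Among kept embryos from 70 h, 4 had more than 10% of their counts on the single transcript HD_v1_tr_06538: embryo 58 at 79 h with 33.2%, embryo 17 at 80 h with 51.3%, embryo 24 at 97 h with 10.4% and embryo 76 at 97 h with 27.4%. Embryo 55 at 76 h stood below its neighbours on the 243 transcripts. These 5 are the only kept embryos of 76, 79, 80 and 97 h. Values of those hours, and ranges that span them, come in part from these embryos even where they are not named. No pair of embryos had identical counts.

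Together the 243 transcripts went from a trace to about 4% of the embryo's transcript counts. Their summed share was 0.00611% ± 0.00388 (SD, n = 17) at 0-9 h and 0.0584% ± 0.0356 (n = 10) at 40-49 h. It was flat from 50-59 h, with 0.117% ± 0.0301 (n = 10), to 60-69 h, with 0.123% ± 0.0135 (n = 4). The share then went to 0.357% ± 0.318 (n = 9) at 70-79 h and 3.86% ± 1.24 (n = 8) at 80-89 h, and stood at 3.75% ± 0.324 (n = 14) at 90-99 h. The 80-89 h mean was 10.8 times the 70-79 h mean. The kept embryos ran from 0.0591% to 1.00% at 70-79 h and from 1.43% to 4.96% at 80-89 h. The choice asked a low mean and then a high mean of these same embryos, so this gap is largely set by it. The embryos of 80-89 h left out for depth ran from 0.0519% to 1.84% and overlap the 70-79 h range. Without embryos 55 and 58 the 70-79 h share was 0.307% ± 0.218 (n = 7), without embryo 17 the 80-89 h share was 4.21% ± 0.823 (n = 7), and without embryos 24 and 76 the 90-99 h share was 3.74% ± 0.260 (n = 12). In a whole embryo, more RNA per cell and more cells of the type that makes it cannot be told apart.

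**Figure D1:**
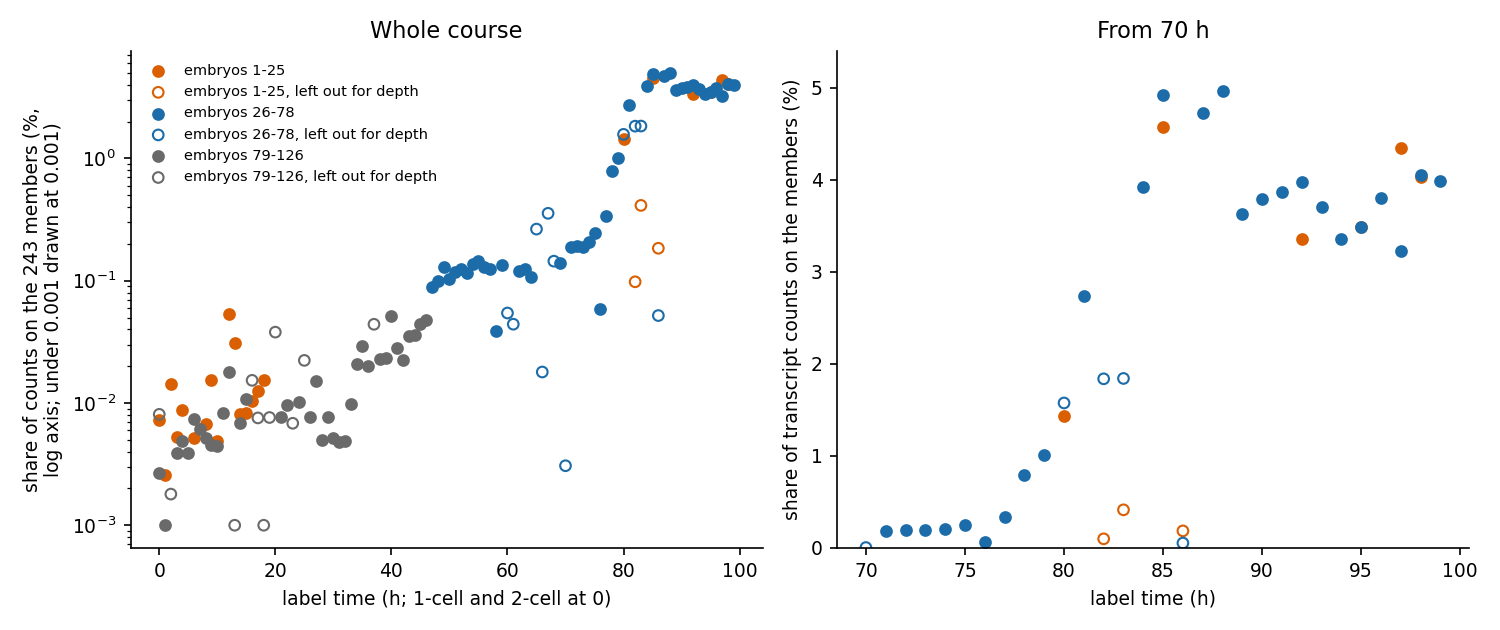
Share of each embryo's transcript counts (%) on the 243 transcripts against label time (h), on a log axis for the whole course and on a linear axis from 70 h; filled points are kept embryos, open points embryos left out for depth, and colours are the runs of embryo numbers. From 84 h every kept embryo lies between 3.23% and 4.96%, and the steep part of the rise lies between 77 and 84 h.

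Within embryos 26-78, which hold nearly every hour from 71 to 99 h, the rise began before the 80-89 h window. The share was 0.188% to 0.247% in the 5 embryos of 71 to 75 h and 0.0591% in embryo 55 at 76 h. The embryos of 77, 78 and 79 h had 0.336%, 0.787% and 1.00%, the last being embryo 58. The share was 2.74% at 81 h, 3.92% to 4.96% in the 4 embryos of 84 to 88 h, and 3.23% to 4.05% in the 11 embryos of 89 to 99 h. So among these kept embryos the share climbed from 77 h and was highest at 85 to 88 h. It lay lower in all 11 later embryos than in the 3 of 85, 87 and 88 h. The embryos of 80, 82, 83 and 86 h of this run were left out for depth.

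Counted as transcripts at 50 CPM or more, 11 to 14 of the 243 were on in the embryos of 71 to 75 h and 0 in the embryo of 76 h. The embryos of 77, 78 and 79 h had 17, 54 and 51 on. The embryo of 81 h had 142, those of 84 to 88 h had 166 to 221, and those of 89 to 99 h had 98 to 198, with embryo 76 the lowest. The ratio of their counts to the ERCC spike-ins, synthetic RNAs added to each tube, moved the same way: 8.29 to 17.3 per 1000 spike-in counts at 71 to 75 h, 59.6 at 78 h, 171 at 81 h and 189 to 323 at 84 to 88 h. The embryos with much of their RNA on HD_v1_tr_06538 had low ratios, 2.90 for embryo 58, 3.83 for embryo 17, 18.6 for embryo 76 and 47.7 for embryo 24. In those 4 embryos the share of counts follows the other embryos of that age more closely than the ratio to spike-ins does.

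**Figure D2:**
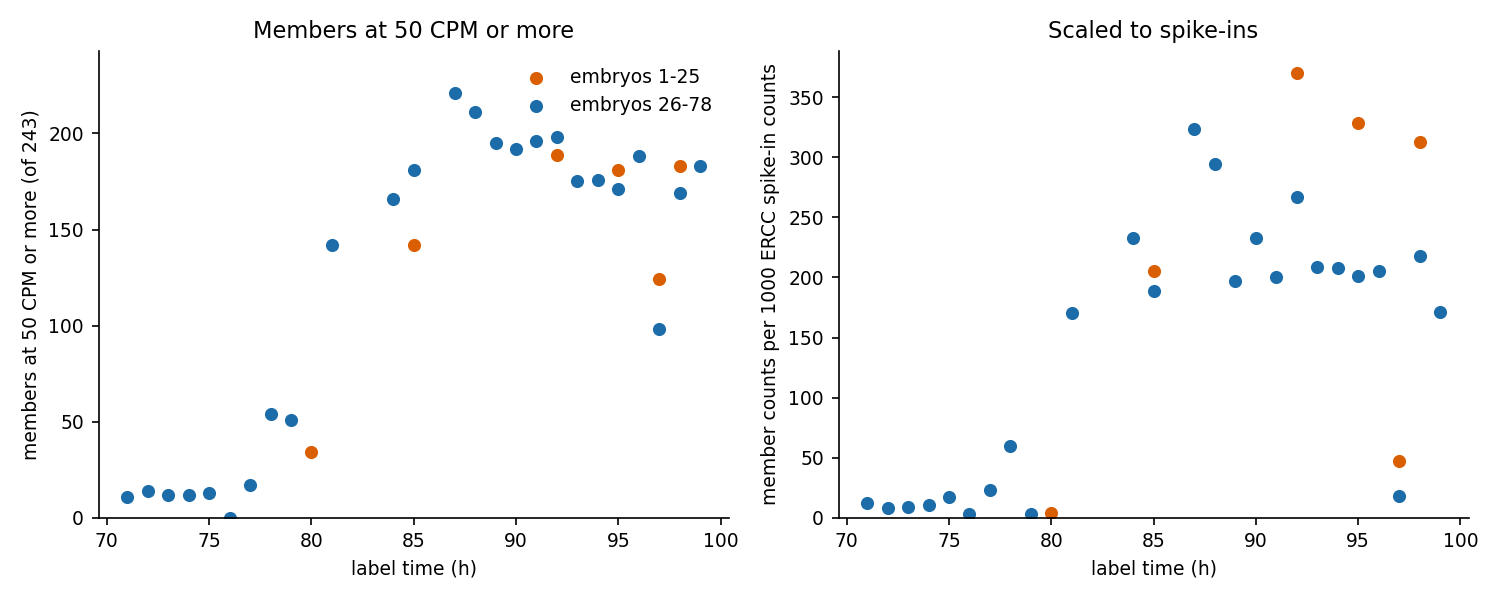
Number of the 243 transcripts at 50 CPM or more (left) and their summed counts per 1000 ERCC spike-in counts (right) in each kept embryo from 70 h, against label time (h). Counts of transcripts go from 11 to 14 at 71 to 75 h to 142 at 81 h and 221 at 87 h, and the 2 embryos of 97 h lie low in both panels.

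Single transcripts crossed 50 CPM at different hours. In embryos 26-78, 123 of the 243 had been at 50 CPM or more in at least 1 embryo by 79 h, 54 more did so first at 81 h, 33 at 84 h, 32 at 85 to 89 h and 1 at 94 h. Of the 123, 41 did so first in the shallow embryo 58, where 50 CPM is fewer than 4 counts. Before 70 h, 91 of the 243 stayed under 1 CPM in every window, 133 had a window mean of 1 CPM or more at 40-69 h, and 67 reached 10 CPM there. By 70-79 h, 122 had a mean of 10 CPM or more and 30 had no count in any of the 9 embryos. The 80-89 h mean was more than 10 times the 70-79 h mean, or followed a mean of 0, for 138, and was less than 2 times it for 10, with a median ratio of 10.5 over the 213 with a count at 70-79 h.

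Levels after the rise were moderate and spread over many transcripts. Over the 22 kept embryos of 80-99 h, 102 had a mean under 100 CPM, 90 a mean of 100 to 200, 41 of 200 to 500, and 10 of 500 CPM or more. The 10 most abundant took 15.4% of the summed level. CEL-Seq counts 1 end per molecule, so CPM was not divided by length. The 90-99 h mean was within 2-fold of the 80-89 h mean for 193, more than 2-fold higher for 28 and more than 2-fold lower for 22, and the median ratio was 0.971.

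The most abundant was HD_v1_tr_09900. It had no count in 8 of the 9 embryos of 70-79 h and 52.1 CPM in the embryo of 78 h. In embryos 26-78 it stood at 187, 0, 370, 1104, 684 and 794 CPM at 81, 84, 85, 87, 88 and 89 h, and at 263 to 1822 CPM in the 10 embryos of 90-99 h. In embryos 1-25 it had no count at 80 or 85 h and 933, 419, 3176 and 1391 CPM at 92, 95, 97 and 98 h. The transcript was thus absent from both young embryos of 1 run and from 1 of 6 of the other, and present in all 14 embryos of 90-99 h. It was also 1 of the 2 transcripts of the list with a window mean of 10 CPM or more before 40 h (33.7 CPM ± 114 at 10-19 h, n = 13).

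HD_v1_tr_05322, the second in abundance, showed the steadiest plateau of the 4. Its level at 70-79 h was 0 to 2.83 CPM in 8 embryos and 195 CPM in embryo 58. In embryos 26-78 it stood at 784, 970, 1489, 803, 706 and 895 CPM from 81 to 89 h, and at 513 to 1090 CPM in 9 of the 10 embryos of 90-99 h. The other, embryo 76, had no count. In embryos 1-25 it had no count at 80 h, 683 CPM at 85 h and 402 CPM or more at 92 to 98 h.

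HD_v1_tr_12174 was higher at later hours. In embryos 26-78 it stood at 76.2 CPM at 81 h, 250 CPM at 84 h and 311 to 486 CPM at 85 to 89 h. It was at 465 to 784 CPM in the 7 embryos of 90 to 96 h and at 1328, 1444 and 1052 CPM at 97, 98 and 99 h. In embryos 1-25, however, the values at 97 and 98 h, 648 and 638 CPM, lay close to the 656 CPM at 85 h.

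HD_v1_tr_00932 was highest early. In embryos 26-78 it stood at 853, 2347 and 1600 CPM at 81, 84 and 85 h, 431, 804 and 165 CPM at 87, 88 and 89 h, and 0 to 351 CPM at 90-99 h. In embryos 1-25 it stood at 77.1 CPM at 80 h, 3012 CPM at 85 h and 251 to 793 CPM at 92 to 98 h. Both runs had their highest value at 84 or 85 h, and no embryo of 90-99 h reached the level of the 3 embryos of 84 and 85 h.

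HD_v1_tr_08691 had the same course and, at 90-99 h, the smallest spread of the 131 transcripts with a mean of 100 CPM or more there (coefficient of variation 0.294, n = 14). It stood at 0 to 15.9 CPM in the 9 embryos of 70-79 h. In embryos 26-78 it was at 1728, 2280 and 1541 CPM at 81, 84 and 85 h, 391, 571 and 383 CPM at 87, 88 and 89 h, and 149 to 356 CPM at 90-99 h. In embryos 1-25 it had no count at 80 h, 1296 CPM at 85 h and 180 to 303 CPM at 92 to 98 h. Both runs were thus high at 85 h and lower from 92 h on. Embryos 1-25 have no kept embryo between 80 and 85 h or between 85 and 92 h, so the hour of their peak is not known.

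HD_v1_tr_08592, with the next smallest spread (0.341), came on later. It had no count in the 9 embryos of 70-79 h, nor at 80, 81 or 84 h, and stood at 28.0 and 69.4 CPM in the embryos of 85 h. It was at 334, 261 and 201 CPM at 87, 88 and 89 h and at 64.9 to 295 CPM in the 14 embryos of 90-99 h. The transcript went from 0 to its plateau between 84 and 87 h.

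**Figure D3:**
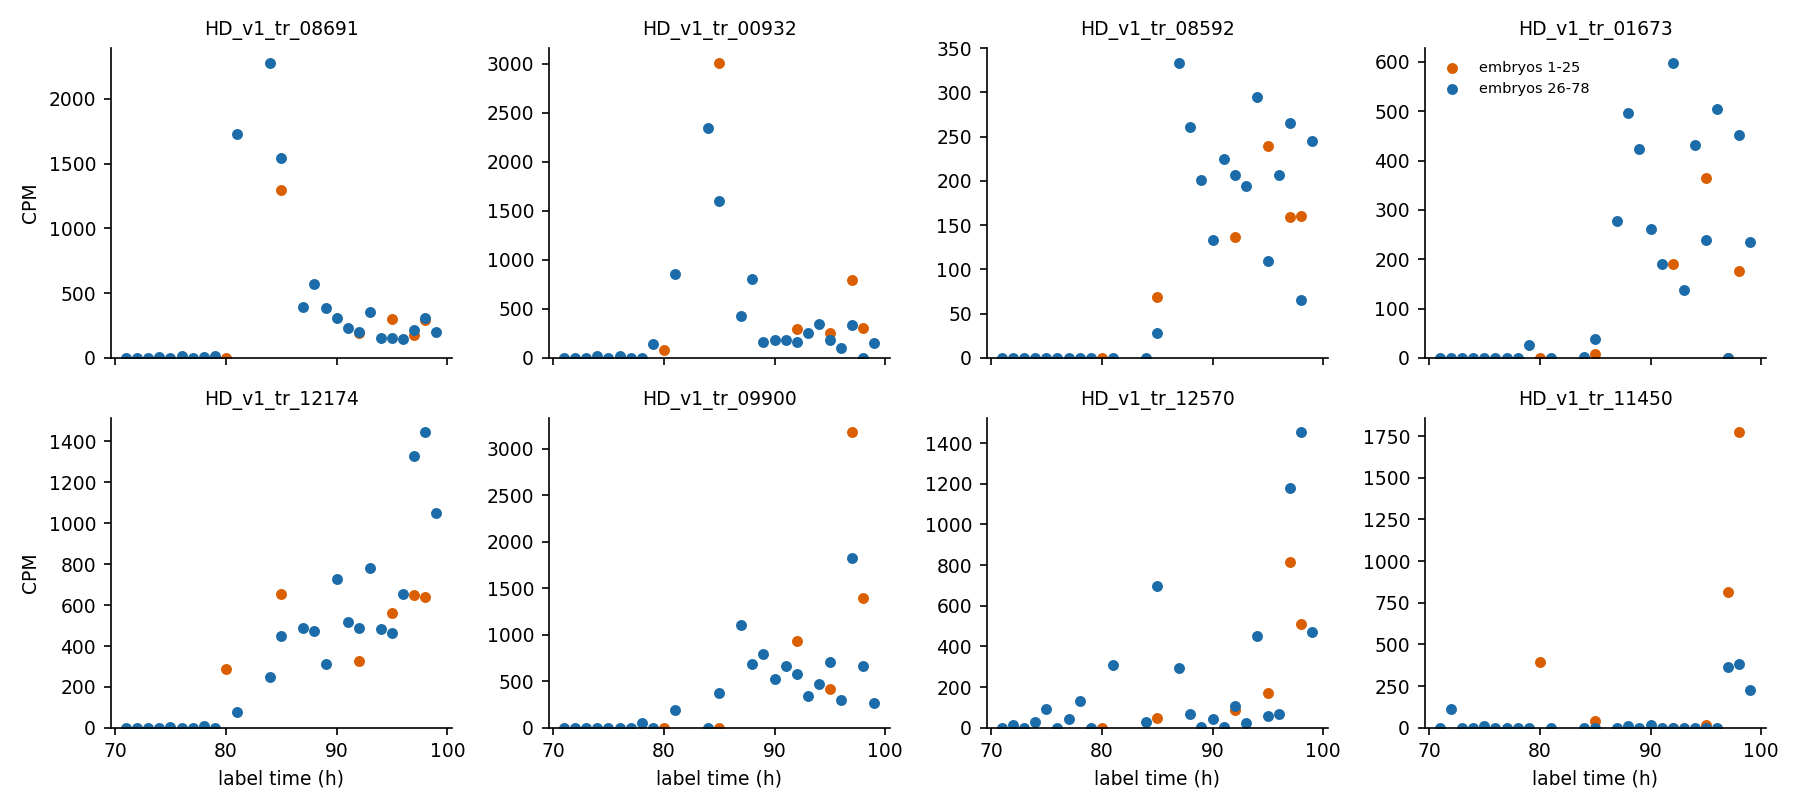
CPM of 8 of the 243 transcripts in each kept embryo from 70 h against label time (h), embryos 1-25 in orange and embryos 26-78 in blue; each panel has its own linear axis from 0. HD_v1_tr_08691 and HD_v1_tr_00932 are highest at 81 to 85 h, and HD_v1_tr_08592 and HD_v1_tr_01673 step up between 85 and 87 h. In embryos 26-78, HD_v1_tr_11450 is highest at 97 to 99 h, and HD_v1_tr_12570 is high there and at 85 h.

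These courses recur in the list. The kept embryos of 26-78 from 81 h were put in 4 bins after their values had been seen, so the counts are a description. The bin of 81-85 h (3 embryos) held the highest mean of 67 transcripts, the bin of 87-89 h (3 embryos) that of 80, the bin of 90-95 h (6 embryos) that of 46 and the bin of 96-99 h (4 embryos) that of 50. It was more than 2-fold above each other bin for 17, 8, 1 and 12 of these. Without embryo 64 at 85 h the bins held 48, 85, 52 and 58, and without embryo 76 they held 68, 77, 46 and 52. Of the 50 at 96-99 h, 36 stayed there without embryo 76, and 11 transcripts then stood more than 2-fold above each other bin.

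The 12 transcripts that stood out at 96-99 h are HD_v1_tr_01145, HD_v1_tr_01252, HD_v1_tr_03696, HD_v1_tr_04195, HD_v1_tr_04583, HD_v1_tr_04584, HD_v1_tr_04585, HD_v1_tr_05354, HD_v1_tr_06868, HD_v1_tr_06873, HD_v1_tr_11450 and HD_v1_tr_12570. The places of HD_v1_tr_01145, HD_v1_tr_05354, HD_v1_tr_06868 and HD_v1_tr_06873 rest on embryo 76 at 97 h. They stood at 835, 805, 858 and 759 CPM there, and at 18.9 to 209 CPM at 96, 98 and 99 h in embryos 26-78. Embryos 1-25 did not set the bins, and embryo 17 at 80 h was left out of the comparison that follows. In embryos 1-25, 10 of the 12 were higher at both 97 and 98 h than at 85, 92 and 95 h. The same held for 28 of all 243 and 216 of the 2604 transcripts with a mean of 50 CPM or more at 90-99 h. Embryos 1-25 did enter the window means that chose the 243. Without them 9 of the 12, HD_v1_tr_11450 not among them, meet the rule, and 7 of the 10 are among these 9. HD_v1_tr_04583, HD_v1_tr_04584 and HD_v1_tr_04585 had nearly equal values in each embryo, as did HD_v1_tr_05354 and HD_v1_tr_06868, and HD_v1_tr_03696 and HD_v1_tr_04195 varied together. With each such group counted once, the 12 are 8 entries and the 10 are 7. Their median in embryos 1-25 was 42.4, 39.2 and 79.8 CPM in the embryos of 85, 92 and 95 h, and 504 and 652 CPM in those of 97 and 98 h. It was also high, 342 CPM, in embryo 17 at 80 h, where the median of all 243 was 0. In that embryo HD_v1_tr_06868 stood at 1223 CPM, against 185 and 254 CPM at 97 and 98 h. HD_v1_tr_03696 stood at 551 CPM there, against 389 CPM at 97 h, and HD_v1_tr_01145 at 319 CPM, against 260 CPM at 98 h. With embryo 17 compared as well, these would leave the 10 and the others would stay.

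HD_v1_tr_11450 is the sharpest of the 12, and had the largest spread at 90-99 h (coefficient of variation 1.94). In embryos 26-78 it was at 0 to 17.4 CPM in the 13 embryos from 81 to 96 h and at 364, 384 and 228 CPM at 97, 98 and 99 h. In embryos 1-25 it was at 397 CPM at 80 h, 0.494 to 38.6 CPM at 85 to 95 h and 813 and 1772 CPM at 97 and 98 h. HD_v1_tr_12570 had a second high value at 85 h: 699 CPM in embryo 64, then 6.22 to 452 CPM at 90 to 96 h and 1177, 1452 and 472 CPM at 97, 98 and 99 h. Of the embryos in which the 12 were high, embryos 17, 24 and 76 had more than 10% of their counts on HD_v1_tr_06538 and embryos 25, 77 and 78 had less than 3%. The part of that transcript in the result was not tested.

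The 17 that stood out at 81-85 h were less alike in embryos 1-25: 5 of 17 were higher at 85 h than at each of 92, 95, 97 and 98 h, against 57 of the 243 and 581 of the 2604. HD_v1_tr_08691, HD_v1_tr_00932 and HD_v1_tr_00576 are among the 5. HD_v1_tr_00576 stood at 536 CPM at 85 h and at 0 to 140 CPM at 92 to 98 h.

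**Figure D4:**
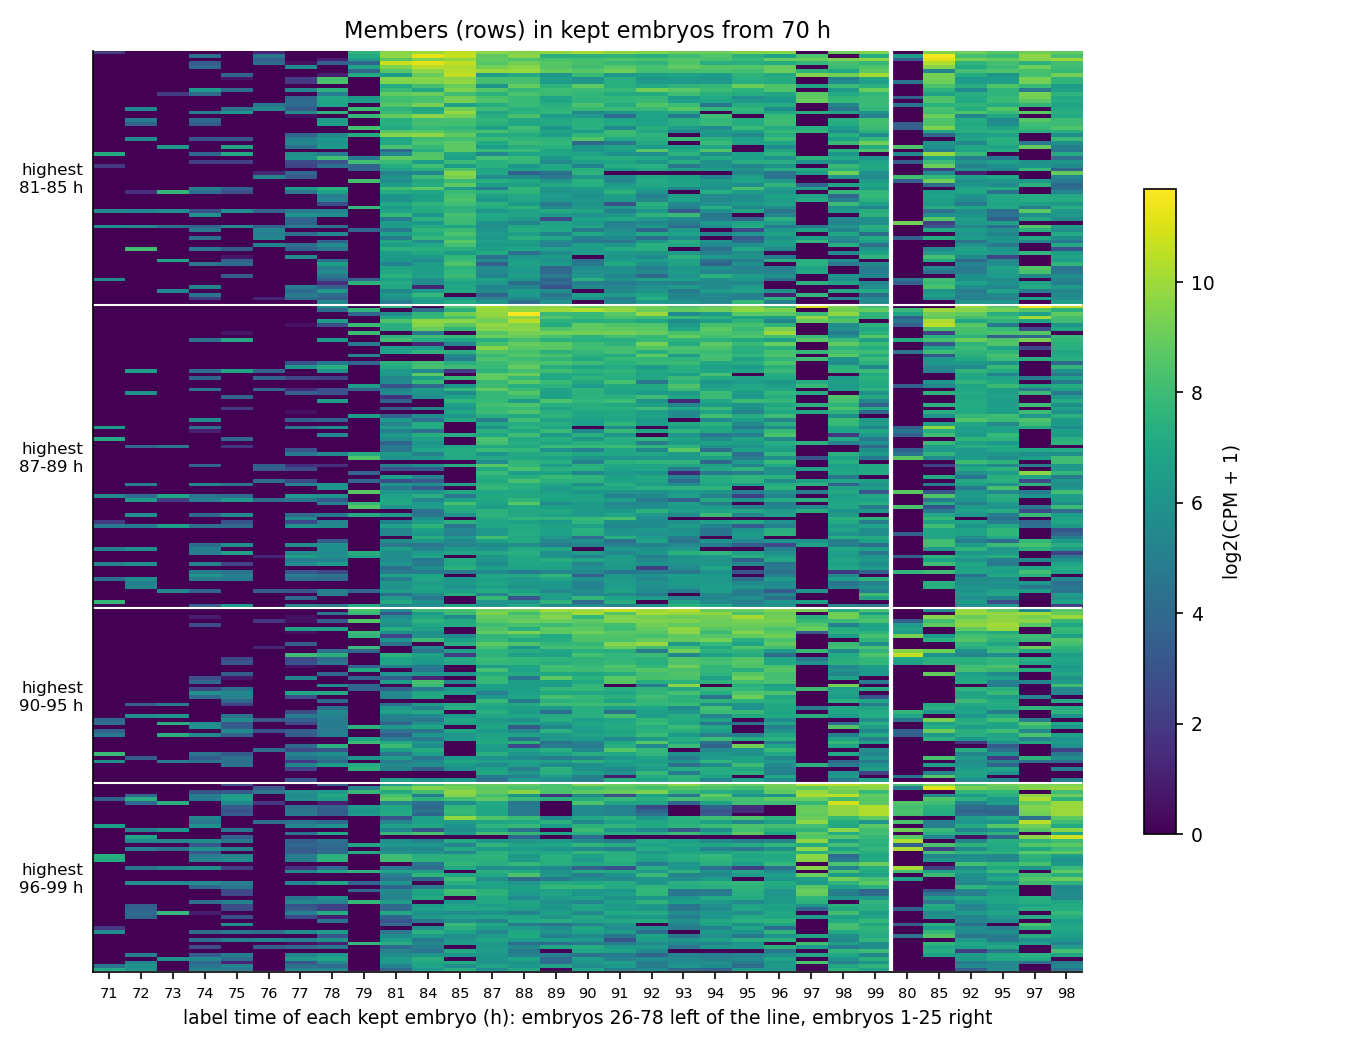
log2(CPM + 1) of the 243 transcripts (1 line each) in every kept embryo from 70 h, ordered by the bin of hours in embryos 26-78 with the highest mean (blocks of 67, 80, 46 and 50 transcripts, from 81-85 h to 96-99 h) and within it by level; embryos 1-25 are right of the vertical line. Dark columns at 79, 80 and 97 h are embryos with much of their RNA on 1 other transcript. A group at the top of the last block is bright at 97 to 99 h in embryos 26-78 and at 97 and 98 h in embryos 1-25.

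Some of the 243 may not be separate measurements. Over the 22 late embryos, 36 of the 29403 pairs of the list had a Pearson correlation of log2(CPM + 1) of 0.95 or more, where the median pair had 0.289, and these link 54 transcripts into 23 groups. The embryos share library and depth, so the correlations are a description. HD_v1_tr_04583, HD_v1_tr_04584 and HD_v1_tr_04585, with consecutive identifiers, differed by less than counting error in 63 of 66 comparisons within an embryo. So did HD_v1_tr_05354 and HD_v1_tr_06868 in 22 of 22, HD_v1_tr_00481 and HD_v1_tr_00484 in 22 of 22, and HD_v1_tr_06634 and HD_v1_tr_06637 in 21 of 22. Of 17 pairs with consecutive identifiers, 7 were at 0.95 or more, and their median was 0.938. Whether such transcripts are near-identical copies among which the counting split reads was not tested, and their separate values are uncertain. With each group counted once the list holds 212 entries.

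Presence varied from embryo to embryo. Of the 243, 23 had a count in all 22 embryos of 80-99 h and 201 in at least 80% of them. Without the embryos with more than 10% of counts on HD_v1_tr_06538, 98 had a count in all 19. Zeros were also counted at 90-99 h, in the 11 embryos with at least 500000 counts. The 131 transcripts with a mean of 100 CPM or more in that window still had no count in 39 of 1441 values, or 2.71%. These zeros fell on 23 transcripts. Across all 1265 transcripts of that level the share was 1.71%. The median coefficient of variation at 90-99 h was 0.757, from 0.294 to 1.94, close to the 0.750 of all 2604 transcripts at 50 CPM or more.

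Where both runs have an embryo of 1 hour, the pair held about the same total of these transcripts in different proportions. With embryos 1-25 first, the shares were 4.58% and 4.92% at 85 h, 3.36% and 3.97% at 92 h and 3.48% in both at 95 h. For the pair of 97 h they were 4.34% and 3.23%, and for the pair of 98 h 4.03% and 4.05%. Across the 243, the Spearman correlation of these 5 pairs was 0.255 to 0.540, and 44 to 154 transcripts lay within 2-fold of each other. For 13 pairs 1 h apart within embryos 26-78 it was 0.0198 to 0.629, with a median of 0.515, the lowest being with embryo 76.

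The 25 embryos left out for depth had no part in the choice and give a separate view of the rise. Pooled by window, the share of the 243 was 0.00294% at 0-9 h (2 embryos), 0.106% at 60-69 h (6 embryos, 130 counts, exact Poisson interval 0.0887% to 0.126%) and 0.885% at 80-89 h (7 embryos, 2924 counts, 0.853% to 0.918%). The intervals are at the 95% level and cover counting error only. The 1 embryo left out at 70-79 h, of 70 h, had 1 count (0.00307%). At 80-89 h 154 of the 243 had a count, and single embryos ran from 0.0519% to 1.84%. Those of 60-69 h ran from 0.0179% to 0.356%, so single embryos of the 2 windows overlap. The 3 embryos of 26-78 at 80, 82 and 83 h had 1.57%, 1.84% and 1.84%, between the 79 h and the 81 h values of kept embryos. The other 4 were lower, with 0.0980%, 0.413% and 0.184% at 82, 83 and 86 h in embryos 1-25 and 0.0519% at 86 h in embryos 26-78. HD_v1_tr_06538 took 38.3% to 64.5% of the counts in all 7. With it taken out of the total, the 3 embryos had 2.56% to 3.31%, the other 4 had 0.146% to 0.917%, and kept embryo 17 at 80 h had 2.94% in place of 1.43%. Left-out embryo 46 at 67 h, with 59 counts on the 243, then had 1.08% in place of 0.356%, above those other 4.

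Slopes within the late windows use the same embryos as the choice. A low mean at 70-79 h and a high one at 80-89 h and 90-99 h favour transcripts that come on inside 80-89 h, so a slope there is partly set by the choice and nothing is read from its count. With 1 slope per hour over the 22 embryos of 80-99 h, with window and run as terms, edgeR called 2 of 8984 transcripts higher with the hour (0.0223%) and 1 lower (0.0111%) at an adjusted p under 0.05. Of the 243, all of which entered the test, it called 0, with 5 at an unadjusted p under 0.05, and DESeq2 called 0, with 20 unadjusted. The median slope of the 243 was 0.04 on the log2 scale per hour against -0.02 over all tested, and 150 of the 243 slopes (61.7%) were positive against 44.2% of all tested. The median standard error of a single slope was 0.135.

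The smallest p-values among transcripts with a count in at least 80% of the embryos were those of HD_v1_tr_10174 (slope 0.25, SE 0.11) and HD_v1_tr_12570 (0.32, SE 0.15) upward, and of HD_v1_tr_05949 (-0.29, SE 0.14) and HD_v1_tr_03413 (-0.25, SE 0.13) downward, each with an adjusted p of 1 in edgeR. HD_v1_tr_10174 stood at 68.5 to 236 CPM at 90 to 96 h and at 713, 589 and 1092 CPM at 97, 98 and 99 h in embryos 26-78, but it was also at 1573 CPM in embryo 64 at 85 h.

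The course of the share, steep before 85 h and level after, led to separate slopes for each window, a choice made after seeing the data. At 80-89 h, 7 of the 243 rose with the hour and 0 fell, where edgeR called 19 of 9726 transcripts higher (0.195%) and 6 lower (0.0617%). The 7 are HD_v1_tr_01673, HD_v1_tr_06920, HD_v1_tr_08592, HD_v1_tr_09686, HD_v1_tr_10686, HD_v1_tr_11087 and HD_v1_tr_12478. Their slopes were 1.47 to 2.03 on the log2 scale per hour, with adjusted p from 0.012 to 0.035 in edgeR. HD_v1_tr_01673 and HD_v1_tr_11087 form 1 of the groups above that varied together, and differed by less than counting error in 11 of 22 embryos.

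In embryos 26-78, HD_v1_tr_01673 stood at 0, 1.42 and 38.4 CPM at 81, 84 and 85 h, and at 278, 497 and 424 CPM at 87, 88 and 89 h (slope 1.63, SE 0.32, adjusted p 0.012 in edgeR). HD_v1_tr_12478 stood at 0, 25.5 and 0 CPM at the earlier 3 hours and at 393, 634 and 597 CPM at the later 3 (slope 1.47, SE 0.32, adjusted p 0.022 in edgeR). HD_v1_tr_06920, HD_v1_tr_09686 and HD_v1_tr_10686 had no count at 81, 84 or 85 h and a mean of 136, 147 and 145 CPM at 87 to 89 h. All 7 share this step between 85 and 87 h in embryos 26-78. They were called for a rise within these same hours and embryos, so the shared step is partly set by that call.

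At 90-99 h edgeR called 22 of 9726 transcripts higher with the hour (0.226%) and 3 lower (0.0308%), and 0 of the 243, with 17 at an unadjusted p under 0.05. DESeq2 was not run on the separate slopes. The slope at 90-99 h differed from that at 80-89 h for 12 of the 243, being lower for all 12, where edgeR called 44 of 9726 higher (0.452%) and 118 lower (1.21%). The 12 hold the 7 above, with HD_v1_tr_00305, HD_v1_tr_03392, HD_v1_tr_06401, HD_v1_tr_06637 and HD_v1_tr_11990. The median difference of the 243, -0.21, lay next to the -0.20 of all tested. Without embryos 17 and 60, the earliest of the window, edgeR called 0 of the 243 and 0 of all 9612 tested for the slope at 80-89 h, and 0 of the 243 and 1 of all for the difference. The slopes of the 7 were then 1.28 to 2.53, with standard errors of 0.43 to 0.79. With RLE factors in place of TMM, the 80-89 h slope called 7 of the 243 higher and 0 lower (15 and 17 of all), and the difference called 6 higher and 8 lower (66 and 69 of all).

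**Figure D5:**
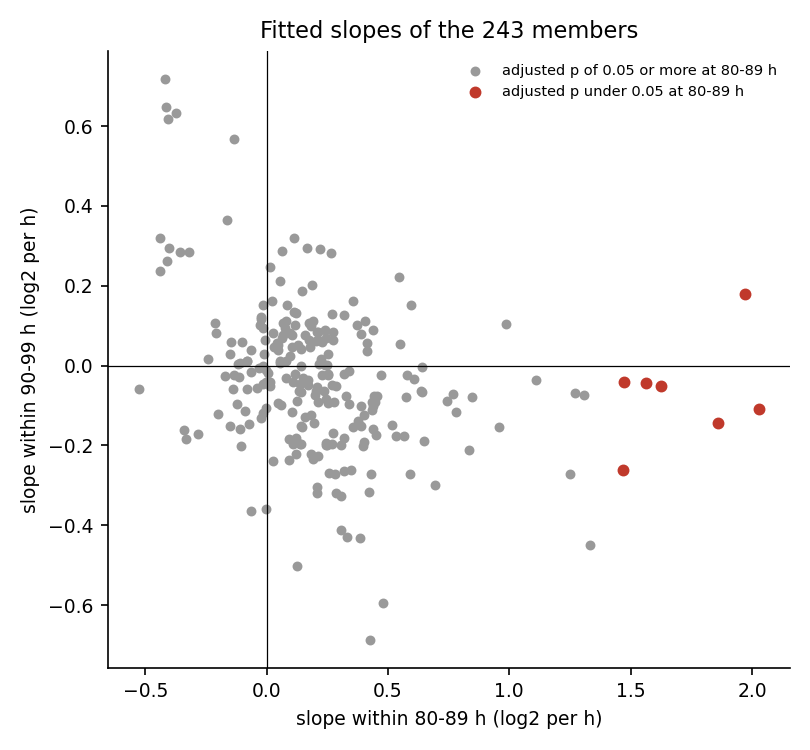
Fitted slope within 80-89 h against that within 90-99 h for each of the 243 transcripts (log2 per hour, edgeR, 22 embryos), the 7 with an adjusted p under 0.05 at 80-89 h in red. The 7 lie at 1.47 to 2.03 on the horizontal axis and between -0.26 and 0.18 on the vertical axis.

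Between the runs at the same ages, edgeR called 115 of 8984 transcripts higher in embryos 1-25 (1.28%) and 13 lower (0.145%), and 2 of the 243 higher and 0 lower. DESeq2 called 6 of the 243 higher and 2 lower (2.47% and 0.823%), and 215 and 156 of all 11493 (1.87% and 1.36%). The median difference of the 243 was -0.23 on the log2 scale against -0.28 over all tested in edgeR. The median over all tested was -0.44 with library totals alone, -0.14 with ERCC library sizes and 0.04 with DESeq2, so its direction depends on the scaling. With only the 10 embryos of the 5 hours that both runs have, and the hour as a block, edgeR called 0 of the 243 (9 at an unadjusted p under 0.05, 18 higher and 4 lower of all 6931), with medians of 0.36 and 0.66.

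Both transcripts called owe their place among the 243 to embryos 1-25, so the differences are partly set by the choice and are given as values. HD_v1_tr_01314 stood at 209, 266, 115, 88.5, 294 and 109 CPM in embryos 1-25 and at 0 to 57.3 CPM, with a median of 27.0, in the 16 embryos of 26-78. Its means in embryos 26-78 were 33.4 CPM at 80-89 h and 22.1 CPM at 90-99 h, both under the threshold of 50 CPM. HD_v1_tr_11450, described above, had a count in 6 of 6 embryos of 1-25 and 5 of 16 of 26-78, where its mean at 80-89 h was 2.19 CPM.

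HD_v1_tr_01412, not called by edgeR, stood at 0, 282, 90.8, 250, 309 and 157 CPM in embryos 1-25 and at 5.05 to 106 CPM in embryos 26-78, with means there of 36.6 and 34.7 CPM. On the other side, HD_v1_tr_05682 was at 0 to 100 CPM in embryos 1-25 and 63.4 to 423 CPM in embryos 26-78, and HD_v1_tr_06376 at 0 to 75.5 CPM and 0 to 342 CPM. In all, 225 of the 243 meet the rule without embryos 1-25 and 18 do not.

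Within 70-79 h the choice set a ceiling on the mean, and the high mean it asked of the next window favours transcripts that come on late in this one. Of the 243, 75 passed the filter on low counts, so these are not the whole list. With a slope per hour over the 9 embryos, all of run 26-78, edgeR called 28 of 6191 transcripts higher with the hour (0.452%) and 7 lower (0.113%), and 1 of the 75 higher and 0 lower. That transcript, HD_v1_tr_01972, had no count in the 6 embryos of 71 to 76 h and 40.8, 120 and 195 CPM at 77, 78 and 79 h (slope 2.11, SE 0.48, adjusted p 0.040 in edgeR). HD_v1_tr_05682 likewise had no count up to 76 h and 70.4, 285 and 26.0 CPM at 77, 78 and 79 h (2.27, SE 0.53, adjusted p 0.055 in edgeR). Leaving out 1 embryo gave 0 calls among the 243 in 8 of 9 cases, embryo 58 included, and 5 of 117 (4.27%) without the embryo of 72 h, where 0.953% of all tested were higher. Without embryos 55 and 58 the count was 0, and with ERCC library sizes 0 (21 higher and 13 lower of all). With no filter on low counts it was 38 higher and 1 lower of 213 (17.8% and 0.469%), beside 2.62% and 0.804% of all 10701.

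The thresholds cut through a continuous range. Just inside the early limit was HD_v1_tr_00305 at 0.999 CPM at 0-9 h, and just outside was HD_v1_tr_03950 at 1.04 CPM. Just inside the ceiling before 80 h was HD_v1_tr_12340 with a highest earlier mean of 49.2 CPM, and just outside HD_v1_tr_10556 with 51.3 CPM. At 80-89 h the nearest were HD_v1_tr_11990 at 50.1 CPM and HD_v1_tr_01377 at 49.8 CPM, and at 90-99 h HD_v1_tr_03179 at 50.6 CPM and HD_v1_tr_03320 at 49.6 CPM. Of 359 transcripts under 1 CPM at 0-9 h and first at 50 CPM or more at 80-89 h, 116 fell under 50 CPM at 90-99 h and are not among the 243. For comparison, 213 were first at that level at 70-79 h and 105 at 90-99 h.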

How the data were processed

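The authors deposited whole-number read counts for every transcript model and embryo, with no normalization. The submitters' processing notes list Bowtie2 2.1.0, HTSeq 0.5.4p3 and CASAVA 1.8; a genome build and an annotation are not given in the sources. The 92 ERCC spike-ins and 5 summary lines of the counting program stayed out of totals and tests. Reads outside any model took a median of 6.64% and unaligned reads 47.8%. The counts have no molecular identifiers, so intervals cover counting error only.

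CPM was computed on the embryo's total over transcript models. Tests used edgeR 4.0.16 in R 4.3.3 (TMM, default filter on low counts, quasi-likelihood test, Benjamini-Hochberg adjustment over all transcripts tested, threshold 0.05), with DESeq2 1.42.0 as an alternative. The test code was checked on simulated data. Named transcripts are the 4 most abundant, those past the threshold or else with the smallest p per test and direction, the 2 smallest and 2 largest coefficients of variation, and the edges of the rule. Others were named after their values were seen: those that stand out in a bin of hours, those of the separate slopes, those that vary together and HD_v1_tr_00576. The members, lists and tests were chosen with earlier results of these data known. Alternatives covered scaling, filters, thresholds, runs and single embryos. Python 3.11.15 was used for summaries.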

Additional observations from a re-analysis of the deposited data

Results flagged for a closer look

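In 20 of 45 groups of 4 to 10 embryos, 1 embryo lay far from the rest by the ratio of its gap to the group's range. The cut-off gives about 1 in 20 for normally distributed values in separate groups. Here the groups share embryos, and many hold mostly zeros of transcripts chosen to come on later. That rate does not apply to them, and nothing is read from the count. The share of the 243 transcripts at 50-59 h was 0.0389% in embryo 37 at 58 h, against 0.103% in the next embryo.

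At 70-79 h, embryo 58 at 79 h stood apart with 195 CPM of HD_v1_tr_05322, 143 CPM of HD_v1_tr_00932, 130 CPM of HD_v1_tr_10174, 26.0 CPM of HD_v1_tr_01673 and 260 CPM of HD_v1_tr_12478. Embryo 57 at 78 h had 52.1 CPM of HD_v1_tr_09900, 9.83 CPM of HD_v1_tr_12174, 285 CPM of HD_v1_tr_05682 and 26.5 CPM of HD_v1_tr_06376. These are the oldest embryos of the window. The others were 48.0 CPM of HD_v1_tr_05949 in embryo 50 at 71 h, 35.9 CPM of HD_v1_tr_03413 in embryo 55 at 76 h, 112 CPM of HD_v1_tr_11450 in embryo 51 at 72 h and 13.3 CPM of HD_v1_tr_02043 in embryo 56 at 77 h.

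At 80-89 h, embryo 64 at 85 h had 1573 CPM of HD_v1_tr_10174, 699 CPM of HD_v1_tr_12570, 622 CPM of HD_v1_tr_03413 and 751 CPM of HD_v1_tr_02043. Embryo 20, of the same hour, had 282 CPM of HD_v1_tr_01412, and embryo 17 at 80 h had 397 CPM of HD_v1_tr_11450.

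By a test of the difference itself in edgeR, 12 of the 243 had a lower slope at 90-99 h than at 80-89 h. Of all 9726 tested, 44 were higher (0.452%) and 118 lower (1.21%). Without embryos 17 and 60 the count among the 243 was 0. The slope at 80-89 h is partly set by the choice, so nothing is read from the count.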

How the results depend on the processing

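The list of 243 held 139 transcripts at a threshold of 100 CPM and 132 with RLE-scaled CPM, of which 124 were among the 243; leaving out single embryos of 80-89 h gave 231 to 268. The late hour slope called 0 of the 243 under each alternative run. The run difference called 1 under RLE factors, ERCC library sizes, no depth filter or no hour term. It also called 1 without embryos with over 10% of counts on 1 transcript. With DESeq2 it called 8 (6 higher, 2 lower), and with single embryos left out 0 to 2. With the 10 embryos of shared hours and the hour as a block it called 0. Under these settings 0.26% to 1.87% of all tested were higher and 0.0577% to 1.36% lower. The 70-79 h slope called 0 with ERCC library sizes, without the embryo with over 10% on 1 transcript and without embryos 55 and 58, 4 with DESeq2 (120 higher and 56 lower of all 5099), 39 with no filter on low counts (280 and 86 of all 10701), 3 with embryos of 65-79 h (32 and 17 of all 6180), and 0 to 5 with single embryos left out. The slope at 80-89 h called 11 without embryos with over 10% on 1 transcript, beside 0.495% higher and 0.0618% lower of all tested. It called 4 without embryo 17, beside 0.205% and 0.041% of all. Without embryos 17 and 60 it called 0, where 0 of all were called. The difference of the slopes called 6 in embryos 26-78 only, all lower, beside 0.0877% higher and 0.34% lower of all tested. It called 0 without embryos 17 and 60. With RLE factors it called 14, 6 higher and 8 lower, beside 0.679% and 0.709% of all. The left-out embryos of 80-89 h had 0.885% pooled and a median of 0.413%. The cause of these moves was not tested. Signs were followed for at most 2 transcripts per fit and direction, picked by the threshold or the smallest p of that fit. For the other named transcripts, HD_v1_tr_11450 among them, signs were not compared. Among those followed, no slope or run difference changed sign. Medians did: the run difference over all tested, -0.28, was 0.04 with DESeq2 and 0.66 with the hour as a block, where that of the 243 went from -0.23 to 0.36; the late hour slope over all tested, -0.02, was 0.01 with library totals, 0.05 with no depth filter and above 0 without 1 embryo of 80-89 h; the 70-79 h slope over all tested, 0.01, was -0.04 with RLE factors, -0.03 with ERCC library sizes and below 0 with 6 of the 9 single embryos left out; and the 90-99 h slope of the 243, -0.04, was 0.00 with RLE factors. Replicate numbers follow accession order and pair no embryos, so the only pairing used was the label hour shared by embryos of both runs. The fit with the label hour as a block was chosen after seeing the data.

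Depth limits single transcripts most: at 50 CPM, kept embryo 58 is expected to hold fewer than 4 counts.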
